A study of Mus musculus with 6 samples.

Results

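The results concern 4 of the 1881 mouse miRNAs on the arrays, namely mmu-miR-574-5p, mmu-miR-574-3p, mmu-miR-1187 and mmu-miR-3082-5p. MiR-574-5p, miR-1187 and miR-3082-5p are rich in G and U, and they were chosen by their log2 difference between type H and type L ECs, which was among the largest falls in earlier results of these same data. MiR-574-3p was taken as the other arm of the miR-574 hairpin. Their differences between the cell types are therefore given as a description, with no test. Among miRNAs detected on all 6 arrays, the log2 differences (type H minus type L) around this choice were -3.25 for miR-3082-5p, -3.07 for miR-1187, -2.92 for miR-466i-5p, -2.64 for miR-574-5p and -2.39 for miR-669n, and then -1.87 for miR-6931-5p, -1.28 for miR-574-3p in rank 7 of the falls and -1.19 for miR-466h-3p.

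The study sorted CD31hiEmcnhi endothelial cells (type H ECs) and CD31loEmcnlo endothelial cells (type L ECs) from bone marrow to find miRNAs that differ between these vessel subtypes. Each group had 3 arrays, labelled as biological replicates. Both groups came from wild type C57BL/6 mice at an age of 1 month, and neither received an agent. CD31 is a junction protein of endothelial cells and endomucin (Emcn) a sialomucin of their surface, and the level of both on the sorted cells is what separates the groups. The labels give the mice as male and the methods as female. The labels also describe culture in endothelial growth medium for both groups and labelling through amplified cRNA, while Cy3-labelled small RNAs are given in the methods. The type H arrays shared 1 slide and the type L arrays a second one, so effects of the slide and of the cell type cannot be told apart.

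A miRNA is cut from a hairpin transcript, and either arm of the hairpin (5p or 3p) can become the mature strand that guides Argonaute to target mRNAs, mainly through its seed near the 5′ end. The arms share 1 transcript, while their levels also depend on which strand is kept and how long it lasts. MiR-574-5p is known for its repeated GU sequence, and it has been described as a decoy for the RNA-binding protein CUGBP1.

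The mature sequences are shown because the repeat is what the GU-rich miRNAs share and what separates them from miR-574-3p. They are RefSeq's, read 5′ to 3′, with bases 2 to 8 (the seed) in capitals.
miR-574-5p: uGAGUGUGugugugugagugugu
miR-1187: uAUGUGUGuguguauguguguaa
miR-3082-5p: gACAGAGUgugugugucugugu
miR-574-3p: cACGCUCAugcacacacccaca

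The longest run of alternating G and U was 13 nt in miR-574-5p, 11 nt in miR-1187 and 10 nt in miR-3082-5p, against 2 nt in miR-574-3p. G or U made up 91.3% of miR-574-5p, 82.6% of miR-1187, 77.3% of miR-3082-5p and 18.2% of miR-574-3p. MiR-574-3p carries the complementary kind of repeat instead, with a run of 7 nt of alternating C and A, and the longest stretch of miR-574-5p that could pair with it without a break was 7 nt. MiR-574-5p shared a stretch of 12 nt with miR-3082-5p and of 11 nt with miR-1187, and the latter pair shared 10 nt. Their seeds nevertheless differ, and 0 other miRNAs of the array with a RefSeq sequence had the same bases 2 to 8 as any of the 4.

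On GRCm38.p6, miR-574-5p lies at chr5:64970328-64970350 and miR-574-3p at chr5:64970364-64970385, both on the plus strand of a hairpin of 78 nt inside the spans of Fam114a1 and Tlr6 in RefSeq. MiR-1187 lies at chr5:82798964-82798986 on the minus strand, where no RefSeq gene span of the table was found. MiR-3082-5p lies at chr17:25831406-25831427 on the minus strand, inside the spans of Jmjd8 and Stub1. Exons and introns were not read. The GU-rich miRNAs thus come from 3 separate loci.

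All 4 miRNAs had lower signal in type H ECs than in type L ECs on every array, and the groups did not overlap for any of them. After quantile normalization, miR-3082-5p was lower by 9.50-fold, miR-1187 by 8.39-fold, miR-574-5p by 6.22-fold and miR-574-3p by 2.42-fold. With limma, 4 of 4 were called lower in type H ECs at an adjusted p under 0.05, beside 42.1% of the 311 miRNAs tested that were called lower and 44.7% that were called higher. Since the same contrast chose the members, nothing is read from that count. In such bulk samples, fewer cells that carry a miRNA and less of it per cell cannot be told apart.

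The signal of a miRNA was the sum of the total probe signals of its own probes, in the scanner's intensity units. For miR-574-5p it was 49.6, 34.8 and 31.3 on the type H arrays and 270, 272 and 238 on the type L arrays. The lowest type L array was thus several times above the highest type H array before any normalization. After normalization the log2 level was 5.36 ± 0.17 in type H ECs and 8.0 ± 0.15 in type L ECs (mean ± SD, n = 3 each), a difference of -2.64 (standard error 0.11).

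For miR-1187 the summed signal was 21.2, 13.2 and 12.5 in type H ECs and 145, 150 and 132 in type L ECs. Type H array 1 was the highest of its group here, as it was for each of the 4 miRNAs. The log2 level was 4.09 ± 0.19 in type H ECs and 7.15 ± 0.063 in type L ECs (mean ± SD, n = 3 each), a difference of -3.07 (standard error 0.10).

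MiR-3082-5p gave 22.4, 12.7 and 12.4 in type H ECs and 168, 170 and 147 in type L ECs. Its log2 level was 4.09 ± 0.33 and 7.34 ± 0.16 (mean ± SD, n = 3 each), and the difference of -3.25 (standard error 0.18) was that of rank 1 among falls of miRNAs detected on all 6 arrays. In type H ECs, array 1 lay above the other two, which were close together. The other arm of its hairpin, miR-3082-3p, was detected on 0 arrays.

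MiR-574-3p gave a summed signal of 4.81, 3.74 and 3.29 in type H ECs and 13.3, 12.5 and 13.0 in type L ECs. The 3 arrays of each cell type lay close together, and the gap between the cell types was smaller than for the GU-rich miRNAs. The log2 level was 2.24 ± 0.10 in type H ECs and 3.52 ± 0.074 in type L ECs (mean ± SD, n = 3 each), a difference of -1.28 (standard error 0.066).

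**Figure D1:**
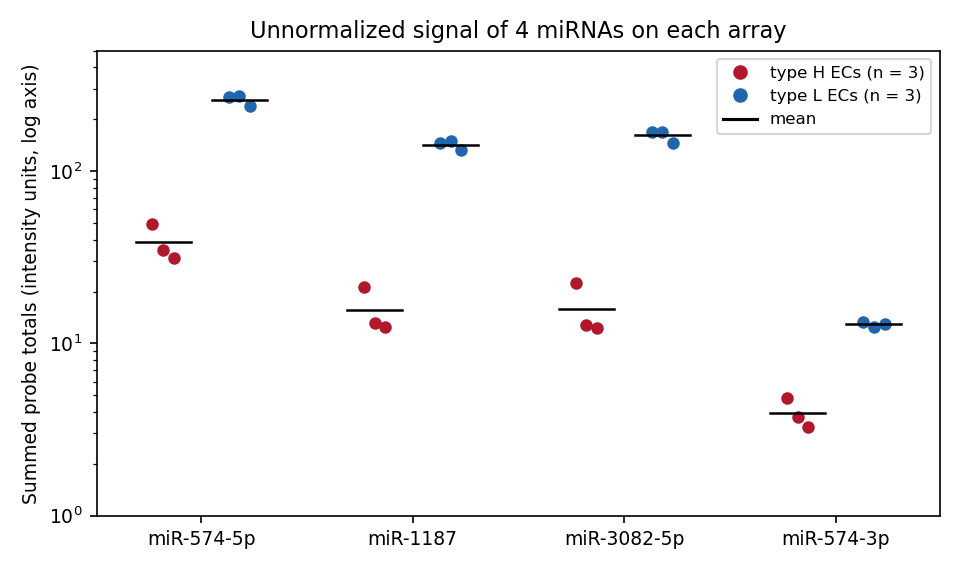
Summed probe totals of the 4 miRNAs on each of the 6 arrays, before normalization, in intensity units on a log axis, with a line at the mean of each cell type. The type H points lie below all type L points for each miRNA, from 12.4 to 49.6 against 132 to 272 for the GU-rich miRNAs and from 3.29 to 4.81 against 12.5 to 13.3 for miR-574-3p.

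The size of the fall differed among the 4, as differences taken within each array show. On the normalized log2 scale, miR-574-5p minus miR-1187 was 1.22 to 1.37 on the type H arrays and 0.75 to 0.93 on the type L arrays, so that miR-1187 fell by 0.43 more than miR-574-5p. MiR-574-5p minus miR-3082-5p was 1.08 to 1.47 in type H ECs and 0.62 to 0.70 in type L ECs, a shift of 0.61. Without normalization these shifts were 0.45 and 0.63. For miR-1187 and miR-3082-5p the answer depended on the scale. Their normalized difference was -0.16 to 0.10 in type H ECs and -0.30 to -0.10 in type L ECs, ranges that overlap, while without normalization it was -0.082 to 0.047 and -0.21 to -0.15, ranges that do not, with a shift of 0.17.

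Each miRNA was read by several probes, which reach from its 3′ end towards its seed. The longest probe of each arm of miR-574 is shown, 5′ to 3′, because the letters show that both arms were read through their repeats.
miR-574-5p, 18 nt probe: acacactcacacacacac
miR-574-3p, 15 nt probe: tgtgggtgtgtgcat

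The former pairs with bases 6 to 23 of miR-574-5p and the latter with bases 8 to 22 of miR-574-3p, so neither covers the whole seed. Among 1607 other miRNAs with a RefSeq sequence, 3 shared 10 nt with the stretch that the 18 nt probe reads, namely miR-1187, miR-3082-5p and miR-32-3p. For the probes of miR-574-3p, none of these 1607 shared more than 9 nt. Array miRNAs without a RefSeq sequence, such as miR-466i-5p, were not searched. Whether the RNA of one GU-rich miRNA adds to the signal of another's probes was not tested.

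The probes of one miRNA all moved the same way. Before normalization, the 17 nt and 18 nt probes of miR-574-5p differed between the cell types by 7.61-fold and 6.45-fold, the 18 nt and 19 nt probes of miR-1187 by 9.65-fold and 9.21-fold, and the 15 nt and 16 nt probes of miR-3082-5p by 11.1-fold and 10.4-fold, all lower in type H ECs. In each pair the shorter probe gave the larger fold. The ratio of the longer to the shorter miR-574-5p probe was 1.83, 1.96 and 1.88 in type H ECs and 1.59, 1.59 and 1.63 in type L ECs, without overlap. For miR-1187 that ratio was 1.45, 1.57 and 1.59 against 1.49, 1.43 and 1.48, and for miR-3082-5p 2.54, 2.56 and 3.13 against 2.49, 2.60 and 2.60, both with overlap.

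The 4 probes of miR-574-3p were near the background in type H ECs. The 15 nt probe, the one above 3 times its own error on all 6 arrays, was lower by 2.48-fold in type H ECs. The 12 nt and 13 nt probes were under that level on all 3 type H arrays and the 14 nt probe on 2 of 3, so no fold is given for them. Of its 30 spots, 5, 1 and 3 were well above background on the type H arrays and all 30 on each type L array. The 12 nt probe had 0 such spots on any type H array. By contrast all 30 spots of miR-574-5p and of miR-1187 were well above background on every array, and those of miR-3082-5p on every array but type H arrays 2 and 3, where 21 and 19 were. No spot of the 4 was saturated.

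**Figure D2:**
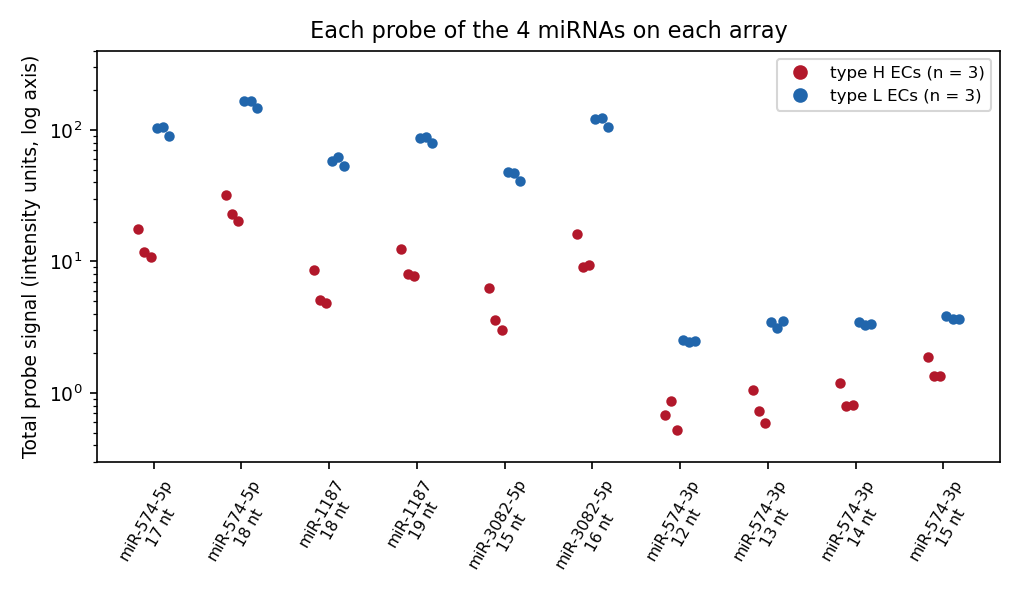
Total signal of each of the 10 probes of the 4 miRNAs on each array, in intensity units on a log axis, with probe lengths under the axis and no normalization. Every probe is lower on all 3 type H arrays than on all 3 type L arrays, and the 12 nt probe of miR-574-3p lies between 0.527 and 0.869 in type H ECs.

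The measured signals of the arms of miR-574 fell by unequal amounts. On the normalized log2 scale, the 5p arm exceeded the 3p arm by 3.19, 3.14 and 3.04 on the type H arrays and by 4.53, 4.54 and 4.39 on the type L arrays. These ranges did not overlap, and the shift between cell types was -1.36, meaning that the 5p arm fell by that much more. As a ratio of the summed signals without normalization, 5p over 3p was 10.3, 9.30 and 9.53 in type H ECs and 20.3, 21.7 and 18.3 in type L ECs, a log2 shift of -1.05. Because different probes read the arms, the ratio describes the change in signal and not which arm was more abundant. The 3p probes were near the background in type H ECs, and the part of this in the shift was not tested.

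The size of this shift depended on how the dim 3p arm was summed. It was -0.73 when only probes with a total above 3 times their own error were counted, an alternative chosen after the data were seen, and -0.64 in the authors' log2 table. Under these settings the log2 difference of miR-574-3p itself was -1.90 and -2.01. The shift stayed below 0 under every alternative run, but these are not all separate checks. A scaling factor per array cancels in a difference within the array. The deposited totals add the signal of another miRNA to the 3p arm in type H ECs.

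**Figure D3:**
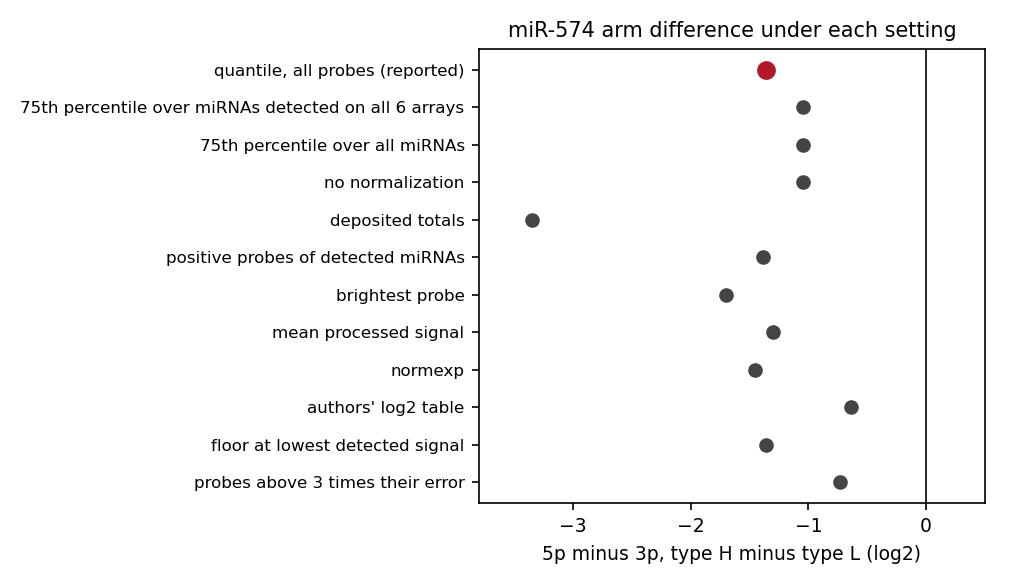
Shift of the miR-574 arm difference (5p minus 3p, type H minus type L, log2 on the horizontal axis) under the reported setting, the larger point, and under each alternative that changes the signal or its scaling. All points lie below 0, from -3.35 with the deposited totals to -0.64 with the authors' log2 table.

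The deposited total per miRNA gave another picture of miR-574-3p. That total was 19.0, 15.5 and 14.7 on the type H arrays, against 4.81, 3.74 and 3.29 from its own probes, and it equalled its own signal on all 3 type L arrays. On each type H array the deposited total was the sum of the miR-574-3p probes above 3 times their error, 3.06, 1.35 and 1.36, and the total listed for miR-5622-3p, 16.0, 14.1 and 13.3. MiR-5622-3p is the detected miRNA that precedes miR-574-3p in name order on those arrays. MiR-574-3p was not alone in this. On each array, 65 to 85 detected miRNAs had a deposited total that likewise held the total of the preceding detected miRNA. Fitted on the deposited totals, the difference of miR-574-3p was 0.71 on the log2 scale, that is, higher in type H ECs, where its own probes gave -1.28. For miR-574-5p, miR-1187 and miR-3082-5p the deposited total equalled the sum of their own probes on all 6 arrays.

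**Figure D4:**
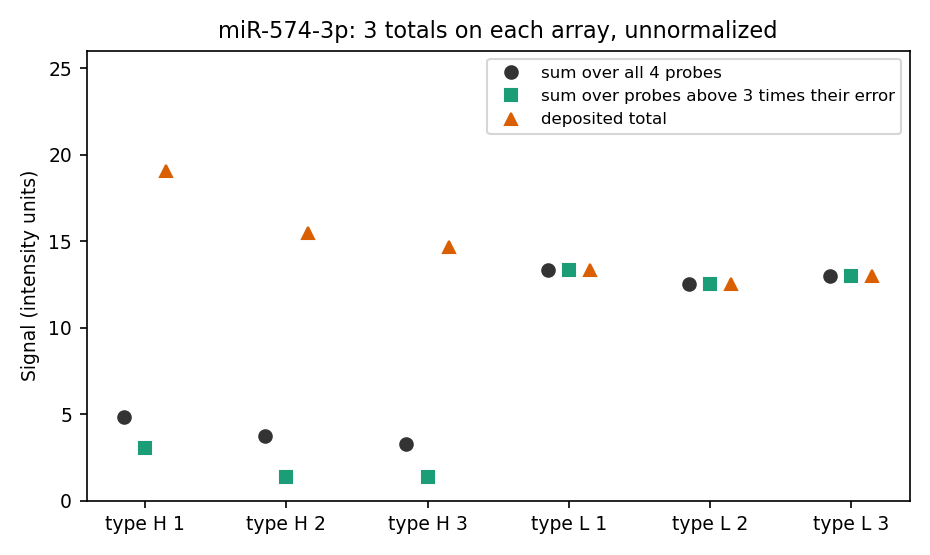
Signal of miR-574-3p on each array in intensity units, without normalization, as the sum over its 4 probes, the sum over probes above 3 times their error, and the deposited total. The deposited total stands above both sums on the type H arrays (14.7 to 19.0) and on top of them on the type L arrays (12.5 to 13.3).

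To see how other miRNAs with the same kind of repeat behaved, all miRNAs whose RefSeq sequence holds UGUGUG on the mature strand were listed. Of the 1881 names on the array, 1608 (85.5%) matched a RefSeq mature sequence, and 1.55% of those hold UGUGUG. Apart from the 3 GU-rich members this gave 22 miRNAs, of which 13 were detected on no array. Of the 8 tested, 4 were detected on all 6 arrays, with a median log2 difference of 0.04, beside 0.11 over all 231 such miRNAs. The other 4 were detected in type L ECs alone and so passed the filter through the group in which they are high. Over all 8, 6 were called lower and 2 higher in type H ECs, beside 42.1% and 44.7% of all 311 miRNAs tested. Their median was -2.41, beside 0.026 over all 311, values that the filter partly fixes. A wider list read from the probes held 19 tested miRNAs, 17 called lower and 2 higher. Of the 19, 14 were detected in type L ECs alone. The 5 detected on all 6 arrays, among them miR-466i-5p at -2.92, had a median of -0.26. The members were chosen with such falls known, so neither list is independent of that choice.

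The 8 tested miRNAs of the RefSeq list are shown, with the longest alternating run of G and U in capitals, because the position and setting of the run differ among them.
miR-669n: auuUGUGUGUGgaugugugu
miR-32-3p: caauuuaGUGUGUGUGauauu
miR-672-5p: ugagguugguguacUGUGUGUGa
miR-6348: ucagccuuuauaagGUGUGUGU
miR-466j: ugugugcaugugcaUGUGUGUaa
miR-7226-5p: gccagggaaguugauUGUGUGaaggg
miR-206-3p: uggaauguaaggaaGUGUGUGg
let-7b-5p: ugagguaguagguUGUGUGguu

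The 3 with the largest differences among those detected on all 6 arrays were miR-669n, at -2.39 (standard error 0.14), miR-206-3p, a miRNA of skeletal muscle, at 0.62, and let-7b-5p, of the let-7 family, at 0.34. The runs of the last pair were 7 and 6 nt long, against 8 nt in miR-669n. MiR-32-3p, miR-672-5p, miR-6348 and miR-466j, named after their values were seen, were detected on every array of type L ECs and on 0 of type H ECs. For such miRNAs the fold is a lower bound, the type L mean against the mean, per type H array, of the higher of the lowest detected signal and the miRNA's own value. In the reported setting they were at least 6.15-fold, 5.51-fold, 4.56-fold and 4.0-fold lower in type H ECs. These bounds do not carry over to other settings. The fitted log2 differences of the 4 were -0.47 to -0.22 with normexp background correction and -7.14 to -5.09 in the authors' log2 table. With these 4 at their bound, the median over all 8 was -2.09. When only miRNAs detected on all 6 arrays were tested, 2 of the list were called lower, beside 81 of all 231. They were miR-669n and miR-7226-5p, the latter with a difference of -0.26.

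Among the tested miRNAs with a RefSeq sequence, other than the members, the 8 with a longest GU run of 6 nt or more had a median log2 difference of -2.41. It was 0.14 for the 112 with up to 2 nt, and the filter partly fixes these values. The 62 tested miRNAs without a RefSeq sequence, among them miR-466i-5p, are left out here and in the medians below. Keeping only miRNAs detected on all 6 arrays leaves out the 4 of those 8 detected in type L ECs alone. The medians of that subset therefore cannot show whether the difference goes with the length of the run. They were 0.093 for the 80 miRNAs with a longest run of up to 2 nt, 0.22 for the 71 with 3 nt, 0.02 for the 28 with 4 to 5 nt and 0.04 for the 4 with 6 nt or more. Within those 4 the values were uneven, since miR-669n was far lower in type H ECs, miR-7226-5p lower by little, and miR-206-3p and let-7b-5p higher.

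**Figure D5:**
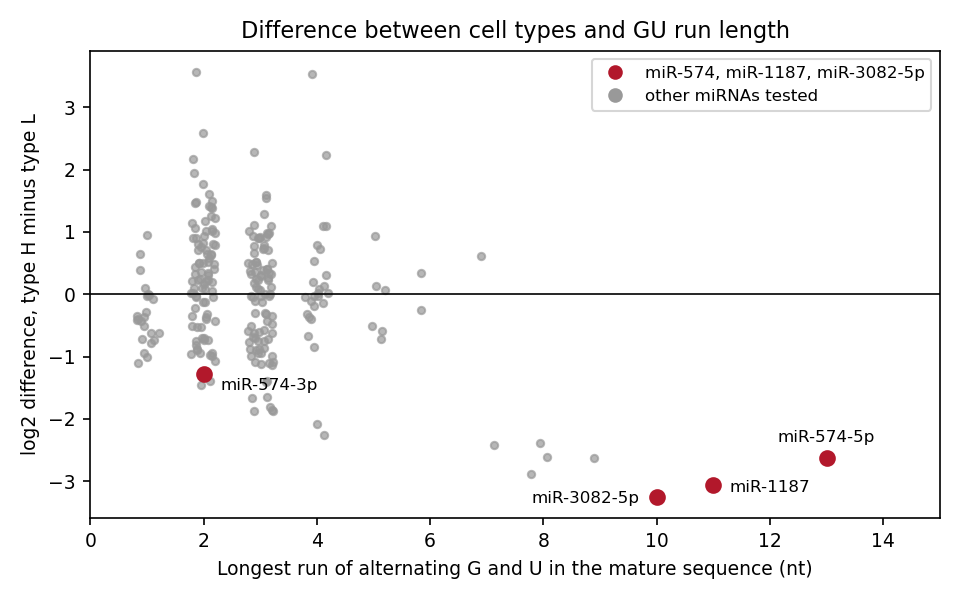
Fitted log2 difference (type H minus type L) of 249 tested miRNAs with a RefSeq sequence against their longest run of alternating G and U in nt, spread sideways within each length for legibility, with the 4 members in red. MiRNAs detected in type L ECs alone, among them 4 of the 8 others with a run of 6 nt or more, passed the filter through that group and are drawn at their fitted value, which is no bound. The members lie at -3.25, -3.07, -2.64 and -1.28.

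The same was done for CACACA, the repeat of miR-574-3p, which 0.746% of the matched sequences hold. Of 11 miRNAs other than miR-574-3p, 5 were tested, all detected on 6 arrays, and 4 were called lower and 1 higher, beside 42.1% and 44.7% of all miRNAs tested. Their median log2 difference was -0.70. A wider list read from the probes held 13 tested miRNAs, of which 8 were called lower, 4 higher and 1 neither. In the former list the largest differences were those of miR-466i-3p at -1.01, miR-342-3p at 0.76 and miR-467f at -0.74. With the deposited totals, many of which hold another miRNA's total, 1 of the 5 was called lower, and miR-466i-3p reversed to 0.56. Which of the 5 are so affected was not examined. The other scalings changed the direction of none of the miRNAs named from either RefSeq list.

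The miRNAs whose pattern over the 6 arrays was most like that of the GU-rich members were the same for each of them. Likeness was the Euclidean distance between log2 values centred on their own mean, over 227 miRNAs detected on all 6 arrays. MiR-466i-5p was nearest, at a distance of 0.36 from miR-574-5p, 0.26 from miR-1187 and 0.54 from miR-3082-5p, where the median distances were 3.39, 3.91 and 4.16. It has no RefSeq sequence of that name, but the stretch its probe reads holds UGUGUG. MiR-669n, whose longest GU run is 8 nt, came next, at 0.37, 0.87 and 1.1. MiR-6931-5p followed, at 0.96, 1.49 and 1.74, and its longest GU run is 3 nt. The distance from miR-574-5p to its own other arm, miR-574-3p, was 1.67. Such distances reflect mainly the difference between the cell types, by which the GU-rich members were chosen. The nearest miRNAs above are also the non-members with the largest falls among those detected on all 6 arrays. That they recur for each member is therefore no separate result.

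Between 263 and 309 miRNAs were detected per array, and 270 of the 311 tested were called, 131 lower and 139 higher in type H ECs. Of the miRNAs that mark the sorted cells, neither arm of miR-126a, the defining endothelial miRNA, was detected on any array. Of 6 haematopoietic miRNAs 0 were detected. Of 6 mesenchymal or mural miRNAs all were detected on at least 1 array and 5 on all 6, with summed signals of 808 to 1026 in type H ECs and 706 to 809 in type L ECs, 4 called higher and 1 lower. MiR-126a thus gives no support to the labelled endothelial identity on these arrays, and the part of other cells in the differences of the 4 miRNAs was not tested. Control features of the array were brighter on the type H slide in 9 of 9 cases, by 0.21 to 1.47 on the log2 scale, and the part of this in the members' differences was not tested.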

How the data were processed

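Labelled RNA of 3 type H and 3 type L samples was hybridized to 1-colour Agilent miRNA arrays, and the authors extracted spot and probe intensities with Feature Extraction 10.7.1.1. These deposited intensities are not normalized between arrays. The authors also deposited a log2 table, quantile-normalized per the methods, with column medians of -3.32 to -3.26, whose offset at the floor is unknown. The header names array design 070155, and the methods another.

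The signal of each miRNA was the sum of the total signals of its distinct probes, quantile-normalized over 1881 miRNAs, set to 1 where lower, and taken as log2. The 311 miRNAs detected in every sample of 1 cell type or both were fitted with limma 3.58.1 (lmFit, eBayes) in R 4.3.3, called at a Benjamini-Hochberg adjusted p under 0.05, after a test on simulated data. The members and lists were chosen with earlier results of these data known. Named miRNAs were the members, their other arms, the 3 largest differences per repeat list and the 3 nearest patterns, unless stated. Sequences and coordinates are from RefSeq (GRCm38.p6). Separate animals behind each array are not given beyond the label of biological replicate. Alternatives covered normalization, signal, background, filter, floor, test, block and arrays left out.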

Additional observations from a re-analysis of the deposited data

How the results depend on the processing

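MiR-574-5p, miR-1187 and miR-3082-5p stayed lower in type H ECs, and called by limma or the methods' t-test, under all 21 alternatives, with log2 differences from -2.88 to -1.99, from -3.33 to -1.88 and from -3.50 to -2.02. With each array left out they ranged from -2.73 to -2.54, from -3.14 to -2.98 and from -3.40 to -3.10. Since the same contrast chose these miRNAs, their calls are no separate support. With the 75th percentile over all miRNAs and with no normalization, the named miRNAs all had 1 standard error, 0.11 and 0.14. Those calls thus rest on a variance pooled over miRNAs. MiR-574-3p reversed to 0.71 with the deposited totals, which on the type H arrays hold the total of another miRNA, and with normexp it was -0.54 and not called. Without single arrays it was -1.33 to -1.23. The arm difference of -1.36 moved to -1.05 with both 75th percentile scalings and with no normalization, to -3.35 with the deposited totals, to -1.70 with the brightest probe, to -1.45 with normexp, to -0.64 with the authors' log2 table and to -0.73 with probes above 3 times their error, and ranged from -1.42 to -1.31 without single arrays. Beyond the deposited totals, the causes were not tested.

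The 270 calls became 413 with no filter, where limma warned of its variance estimate, and the methods' t-test called 265 after Benjamini-Hochberg adjustment. GU-repeat calls of lower signal went from 6 of 8 to 2 of 4 with detection on all 6 arrays, where 81 of all 231 were called lower. They went to 17 of 19 with the list read from probe complements, where 14 of the 19 were detected in type L ECs alone. Of all 311 tested, 42.1% were called lower. CA-repeat calls went from 4 of 5 to 1 of 5 with the deposited totals, many of which hold another miRNA's total. They went to 8 of 13 (61.5%) with that other list. With the replicate block 262 were called and no member's call changed, although same-numbered arrays did not deviate together (correlations of 0.016, -0.12 and 0.15). The 75th percentile of detected miRNAs moved the median difference of miRNAs detected on all 6 arrays from 0.11 to -0.22 and the share of calls that were lower from 48.5% to 64.2%. A slide block could not be run, since each slide holds 1 cell type. The number of arrays and the low signal of miR-574-3p over background limit precision.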
